A study of Saccharomyces cerevisiae with 13 samples.

Results

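The mating pheromone pathway of a cells was followed through 10 genes, taken by name from the known pathway: *STE2*, *MFA1*, *MFA2*, *STE6*, *BAR1*, *AGA2*, *AGA1*, *FUS1*, *FUS3* and *FAR1*. They make up 10 of the 7126 rows in the deposited gene lists, and all 10 had enough counts to be tested in every comparison. Haploid budding yeast exists as a cells and α cells. An a cell secretes a-factor, a short farnesylated peptide, and answers the α-factor of a partner through the receptor Ste2, a G protein and a MAP kinase cascade that ends at the transcription factor Ste12. The cell then stops its division cycle, sticks to its partner and fuses with it. *MFA1* and *MFA2* both encode a-factor, *STE6* its ABC transporter, *BAR1* the secreted protease that degrades α-factor, and *AGA2* the binding subunit of a-agglutinin. These genes and *STE2* are a-specific, since α cells repress them with the α2 protein. *AGA1* (anchor subunit of a-agglutinin), *FUS1* (membrane protein of cell fusion), *FUS3* (the mating MAP kinase) and *FAR1* (inhibitor of the cell cycle kinase and scaffold for polarity proteins) are used by both mating types.

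The libraries were QuantSeq 3′ mRNA-Seq libraries, which count reads near the 3′ end of polyadenylated RNA, and came from *S. cerevisiae* BY4741, a haploid a strain. WT without plasmid was left untreated (n = 2) or treated with caffeine, a purine analog, for 1 h (n = 2), at 50 mM in one library and, by its label, 51 mM in the other. The other groups carried a plasmid and have no caffeine in their labels: WT with the empty multicopy vector pRS426ADH (n = 3), the *yap1* deletion mutant with the same vector (n = 3), and WT with pRS426ADH-*YAP1*, in which the *ADH1* promoter drives *YAP1* (n = 3). Yap1 is the transcription factor of the oxidative stress response, and the overexpression construct is listed with a TAP tag in the study's strain table. Nothing states that the libraries of a group came from separate cultures, so that p-values measure the spread between these libraries, which may be technical. The labels do not say which cultures grew in rich and which in minimal medium.

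The labels were checked against marker genes first. Counts of *YAP1* itself were 2 to 22 in the *yap1* mutant, 635 to 722 in WT with the empty vector and 23285 to 25251 with Yap1 overexpression. *LEU2* and *MET17*, which BY4741 lacks, were at 0 counts in all 13 libraries, whereas *LYS2*, deleted in the genotype that the study's strain table gives for WT, had 312 to 897 counts in every library. *HIS3*, listed as mutant in that genotype, had 744 to 1974 counts. *URA3* had 0 counts in the libraries without plasmid and 44722 to 146805 in the plasmid libraries. Of the α-specific genes, the α-factor genes and the receptor gene were low in every library, with 4 to 57 counts of *MF(ALPHA)1*, 34 to 186 of *MF(ALPHA)2*, and 2 to 41 of the a-factor receptor gene *STE3*. The a-specific genes *MFA2*, *STE2*, *MFA1* and *AGA2* had at least 4154, 1240, 352 and 350 counts. The least counted a-specific genes were *STE6* (207 to 994) and *ASG7* (152 to 474). *SAG1* (142 to 288 counts) and *AFB1* (17 to 284) were not set apart from these, and the highest counts of *MF(ALPHA)2* reached the range of *ASG7*. Total counts ranged from 15508616 to 25609092 per library. The rRNA rows took 14.7% to 27.4% of them in the libraries without plasmid and 43.8% to 75% in the plasmid libraries, which left at least 6409605 counts for other genes.

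The a-specific genes share a known control element. An Mcm1 dimer binds the P box, and in α cells α2 binds the sites that flank it and shuts the gene off. In the 300 bases before the start codon, the α2 site CATGTA was found, on either strand, in all 6 a-specific members and in none of *AGA1*, *FUS1*, *FUS3* and *FAR1*, compared with 11.4% of 6001 genes. The P box, searched as CC and GG with any 6 bases between them (the same on both strands), was in 7 of the 10 members and in 28.7% of genes. Both within 10 bases of each other occurred in 26 genes (0.433%), the 6 a-specific members among them. The stretches below are shown because they set these 6 genes apart from the other 4. Each reads 5′ to 3′ on the strand of the gene, in the R64 (sacCer3) build of the RefSeq genome, and capitals mark the P box in the middle and exact α2 sites beside it.
*STE2* (chrVI:82347-82386, plus strand): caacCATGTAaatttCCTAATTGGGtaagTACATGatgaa
*MFA1* (chrIV:1384937-1384976, plus strand): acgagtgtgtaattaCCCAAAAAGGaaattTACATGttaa
*MFA2* (chrXIV:352158-352197, plus strand): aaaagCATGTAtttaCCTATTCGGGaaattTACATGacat
*STE6* (chrXI:46473-46512, minus strand): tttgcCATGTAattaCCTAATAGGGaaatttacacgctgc
*BAR1* (chrIX:322073-322112, plus strand): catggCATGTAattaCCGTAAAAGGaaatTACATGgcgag
*AGA2* (chrVII:437097-437133, minus strand): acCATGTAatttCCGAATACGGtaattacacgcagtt
The α2 site stood on both sides of the box in *STE2*, *MFA2* and *BAR1* and on 1 side in *MFA1*, *STE6* and *AGA2*, at 4 or 5 bases from the box in each gene.

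Ste12 binds the pheromone response element, searched as TGAAACA on both strands. It was present upstream of 8 of the 10 members, all but *MFA1* and *FAR1*, and of 7.2% of all genes. *BAR1*, *FUS1* and *FUS3* held 2 copies each, as did 0.367% of genes counting those with more. The Yap1-responsive element, searched as TTACTAA or TGACTAA on both strands, was upstream of 0 of the 10 members and of 11.2% of genes. The absence of these letters from the window gives no information on binding by Yap1. The upstream region of *FUS1* is shown because *FUS1* was the 1 member that passed in edgeR between Yap1 groups, with the response elements in capitals.
*FUS1* (chrIII:71503-71802, plus strand): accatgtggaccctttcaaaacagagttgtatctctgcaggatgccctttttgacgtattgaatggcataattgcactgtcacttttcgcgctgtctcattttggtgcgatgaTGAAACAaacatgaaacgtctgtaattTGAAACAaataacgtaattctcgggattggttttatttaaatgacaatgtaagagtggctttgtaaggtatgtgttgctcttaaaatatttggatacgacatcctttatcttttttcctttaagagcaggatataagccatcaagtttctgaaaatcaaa

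The members lie on 9 chromosomes, each with 1 coding exon, and none overlaps another annotated gene. The authors counted reads with more than 1 alignment as well, so it was asked whether reads could be shared. None of the 75-base windows of any member, the read length, occurs elsewhere in the genome. The windows lie within the annotated genes and matches had to be exact. Reads that run past a gene end or align with mismatches were therefore not covered. The absence of shared windows holds for both a-factor genes, which are shown because their counts moved apart in 1 library. Without gaps and aligned at their 3′ ends, they are identical at 63.1% of 111 bases, and the longest run they share, in capitals, has 11 bases.
*MFA1* coding sequence (chrIV:1385176-1385286, plus strand): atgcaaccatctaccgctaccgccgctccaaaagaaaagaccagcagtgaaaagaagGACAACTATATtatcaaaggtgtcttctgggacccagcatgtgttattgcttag
*MFA2* coding sequence (chrXIV:352414-352530, plus strand): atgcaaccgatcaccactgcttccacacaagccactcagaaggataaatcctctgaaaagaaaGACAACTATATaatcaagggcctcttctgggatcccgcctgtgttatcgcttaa

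One library stood apart from the others before any comparison. Replicate 2 of WT with empty vector correlated with the other plasmid libraries at a Pearson r of 0.817 to 0.874 across 4767 genes, whereas the other 8 correlated at 0.943 or more. In this library *MFA1* stood at 18.4 CPM (the share of a library's counts, scaled as CPM after TMM normalization), compared with 282 and 226 CPM in replicates 1 and 3, which is 13.7-fold lower than their mean on the log2 scale. Of 4669 genes averaging 10 CPM or more, 35 were lower than *MFA1* in this difference. *STE2* was 2.35-fold, *MFA2* 2.34-fold and *AGA2* 1.99-fold lower there, whereas *STE6*, *FAR1* and *AGA1* were higher than in both other libraries of the group. Genes with short coding sequences were also lower in this library. Its median log2 difference from the other 2 was -0.44 for 129 genes under 300 bases and 0.01 for 2810 genes of at least 1000 bases. *MFA1*, *MFA2* and *AGA2* are members of under 300 bases and *STE2* is not. The part of gene length or library quality in these values was not tested, and comparisons with WT with empty vector are given with and without this library where a call changes.

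The ratio of *MFA2* to *MFA1* counts shows the same library. It was 19.2 in replicate 2 of WT with empty vector and 2.87 to 4.7 in the other 8 plasmid libraries. It was 1.66 and 2.2 in untreated WT and 1.45 and 0.904 after caffeine, so that more reads fell on *MFA2* than on *MFA1* in all libraries but 1 of the caffeine-treated ones.

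**Figure D1:**
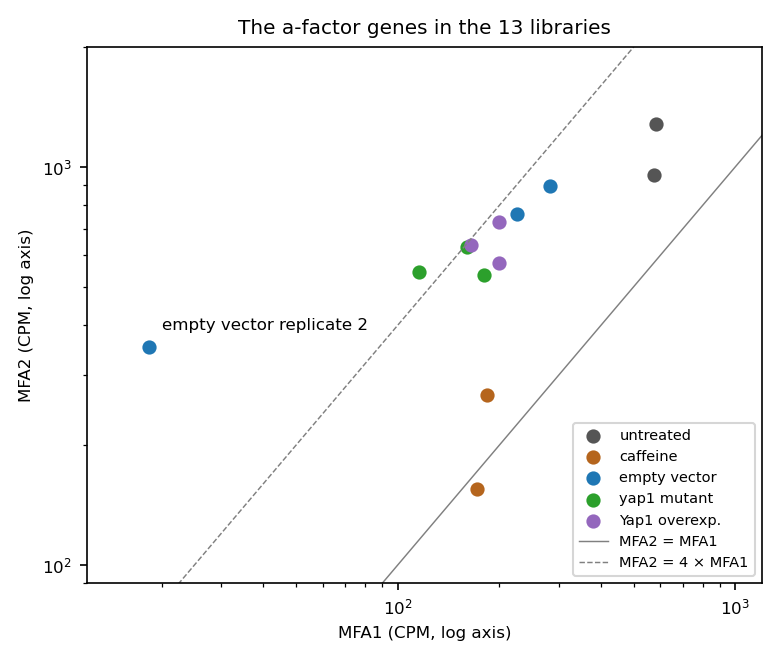
CPM of *MFA1* (x axis) and *MFA2* (y axis) in each of the 13 libraries, both on log axes, with 1 point for each library, coloured by group, and lines for equal levels and for 4 times as much *MFA2*. Replicate 2 of WT with empty vector lies far to the left at 18.4 CPM of *MFA1*, and the caffeine-treated libraries lie at the bottom, near the line of equal levels.

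Caffeine lowered this set of genes. Of the 10 members, 9 fell in caffeine-treated WT compared with untreated WT and 0 rose, and the tenth, *FUS3*, did not pass the test. The response to caffeine was broad, with 45.8% of 6759 genes passing, 22.2% upward and 23.6% downward, so the count of 9 is to be read against the 23.6%. All 10 members were lower in both treated libraries than in both untreated ones, as were 35.2% of all genes. Their median log2 fold change was -1.70 and that of all genes was -0.00. In these bulk libraries, fewer cells that express a gene and less RNA in each cell cannot be told apart.

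**Figure D2:**
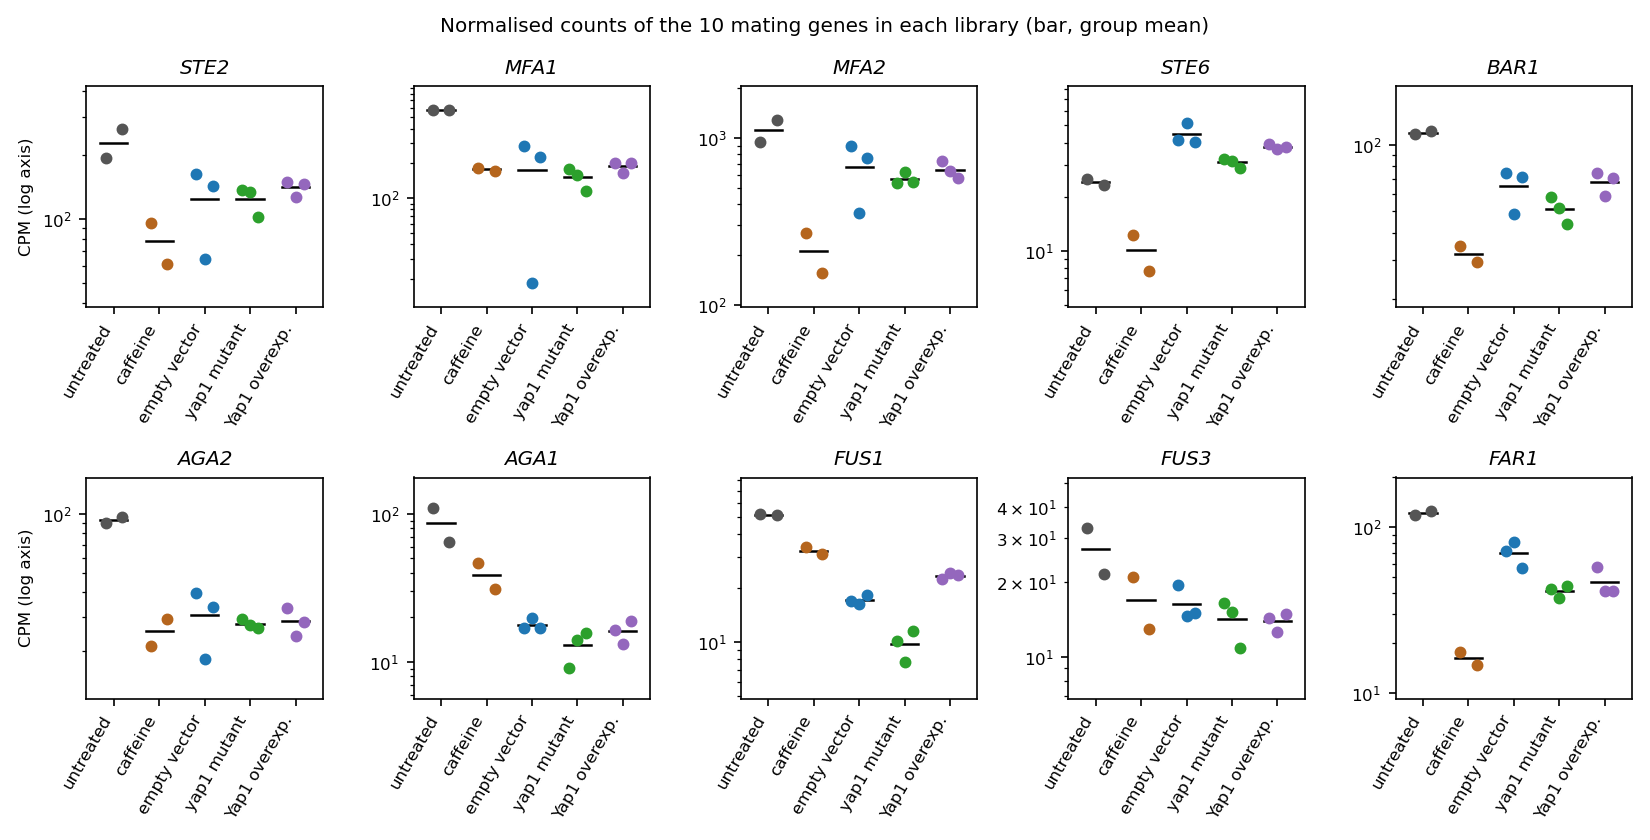
CPM (log axis, its range set for each gene) of the 10 members in the 13 libraries, with 1 panel for each gene, 1 point for each library and a bar at the group mean. In every panel both caffeine-treated libraries lie below both untreated libraries, as in 35.2% of all genes. In the *FUS1* and *STE6* panels the 5 groups do not overlap, and the share of all genes that do so was not counted.

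All 6 a-specific genes fell with caffeine. The receptor gene *STE2* had 192 and 263 CPM in untreated WT and 95 and 61.3 after caffeine, a log2 fold change of -1.61 ± 0.33 (SE) with an adjusted p of 0.00957 in edgeR's quasi-likelihood test. *MFA1* had 575 and 582 CPM and then 184 and 172, a change of -1.78 ± 0.23. These treated values agree closely between libraries, and the groups are far apart. *MFA2*, the member with the most reads, went from 952 and 1282 CPM to 268 and 155, a change of -2.47 ± 0.36, which is 5.56-fold. The transporter gene *STE6* was lowest of the 6, with 25.2 and 23.2 CPM against 12.3 and 7.74 after caffeine, a change of -1.35 ± 0.28. The protease gene *BAR1* went from 112 and 116 CPM to 34.8 and 29.3, a change of -1.91 ± 0.22, and *AGA2* from 89.7 and 96.3 CPM to 21.2 and 29.2, a change of -1.96 ± 0.24. Ligand, transporter, receptor, protease and agglutinin genes therefore all moved down, between 2.54- and 5.56-fold. Adjusted p-values of the 6 in edgeR were 0.00153 to 0.0114. With 1 library left out, where the lone library of a group is assumed to vary like the others, 2 calls were lost: *STE2* without caffeine-treated replicate 2 (-1.32, adjusted p = 0.056 in edgeR) and *STE6* without untreated replicate 1 (-1.24, adjusted p = 0.0647 in edgeR).

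Among the 4 genes that both mating types use, *FAR1* changed most. It had 119 and 125 CPM in untreated WT and 17.5 and 14.7 after caffeine, an 8.01-fold decrease (log2 fold change -3.00 ± 0.23, adjusted p = 0.000867 in edgeR), and 127 of the 6759 genes tested had a lower value. *AGA1* had 110 and 64.4 CPM and then 46.3 and 30.9 (-1.26 ± 0.35, adjusted p = 0.0314 in edgeR). Its untreated libraries differ by more than the gap between the groups, and the call was lost without untreated replicate 1 (-0.77, adjusted p = 0.139) or without caffeine-treated replicate 2 (-0.98, adjusted p = 0.143). *FUS1* had 51.8 and 51.2 CPM and then 33.8 and 31, the smallest change among the genes that passed (-0.75 ± 0.20, adjusted p = 0.0245 in edgeR). Its call did not survive leaving out any 1 of the 4 libraries (-0.83 to -0.67, adjusted p up to 0.123 in edgeR) or scaling by library size alone (-0.37, adjusted p = 0.195), under which the median of all genes shifted to 0.37. *FUS3* had 32.9 and 21.6 CPM and then 20.9 and 13, a log2 fold change of -0.76 ± 0.34 (adjusted p = 0.114 in edgeR).

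**Figure D3:**
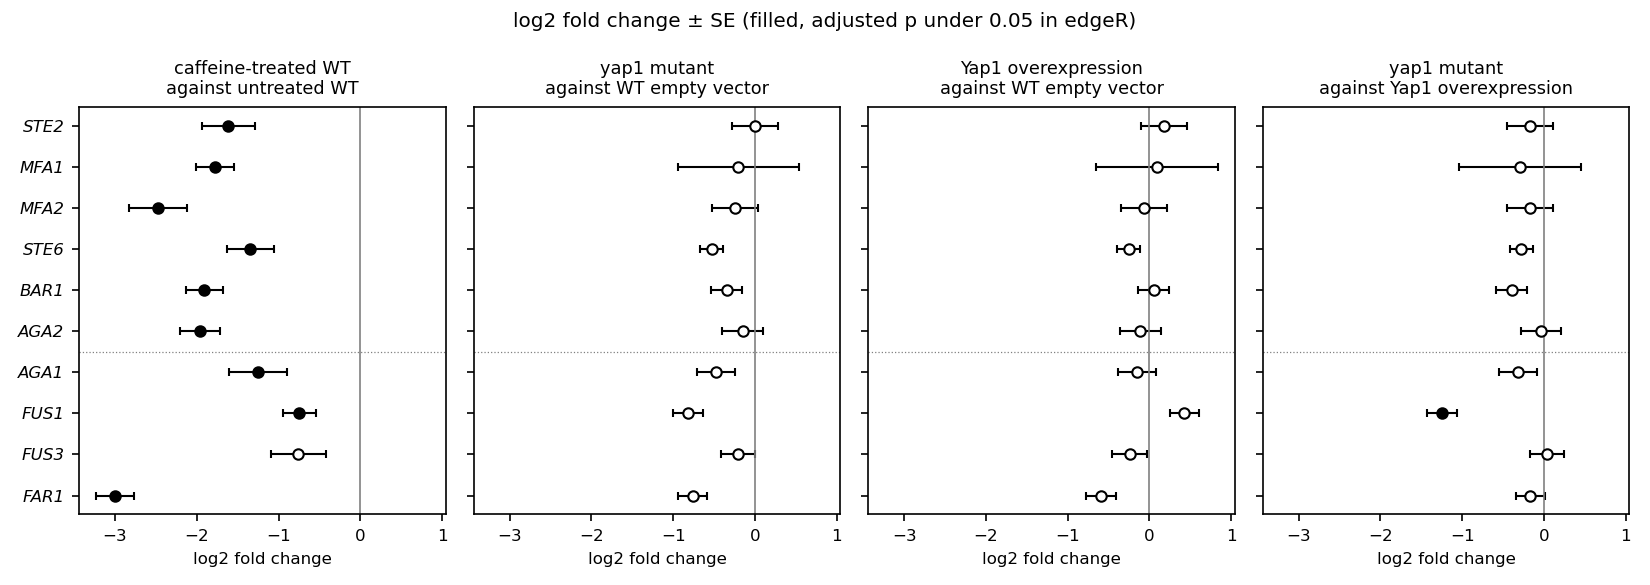
log2 fold change ± SE (x axis) of the 10 members (rows, a-specific genes above the dotted line) in 4 comparisons, with filled points where the adjusted p in edgeR is under 0.05. In the caffeine panel 9 points are filled and lie to the left of 0, none is filled in the 2 panels against WT with empty vector, and *FUS1* alone is filled between the *yap1* mutant and Yap1 overexpression.

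Other genes of the pathway did not move as one with caffeine. The counts below are to be read against the 23.6% of all genes that fell and the 22.2% that rose. Of 17 signalling genes, 6 fell and 2 rose, with a median log2 fold change of 0.14. Those that fell were *GPA1* (G protein α subunit, -1.31 ± 0.25), *STE4* (G protein β subunit, -1.13 ± 0.24), *STE12* (-1.44 ± 0.41), *SST2* (the regulator that turns the G protein off, -1.22 ± 0.21), *MSG5* (a phosphatase of Fus3, -0.80 ± 0.25) and *CDC42* (the polarity GTPase, -1.15 ± 0.28). Those that rose were *STE5*, the scaffold of the kinase cascade, with a change of 1.37 ± 0.29, and *STE11*, its first kinase, with 1.25 ± 0.20. The other 9, among them the kinase gene *STE7* and the G protein γ gene *STE18*, did not pass. Of 6 genes that process a-factor, *STE24* (the protease that trims the precursor, -1.02 ± 0.20) and *RAM1* (β subunit of farnesyltransferase, -0.70 ± 0.21) fell and the other 4 did not pass. Of 14 further genes induced by pheromone or used in fusion, *CIK1*, which encodes a partner of the kinesin Kar3, fell (-0.90 ± 0.24) and the other 13 did not pass, with a median of 0.08. *ASG7*, the a-specific gene outside the 10 members, stayed between 16.2 and 19.2 CPM in the 4 libraries.

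**Figure D4:**
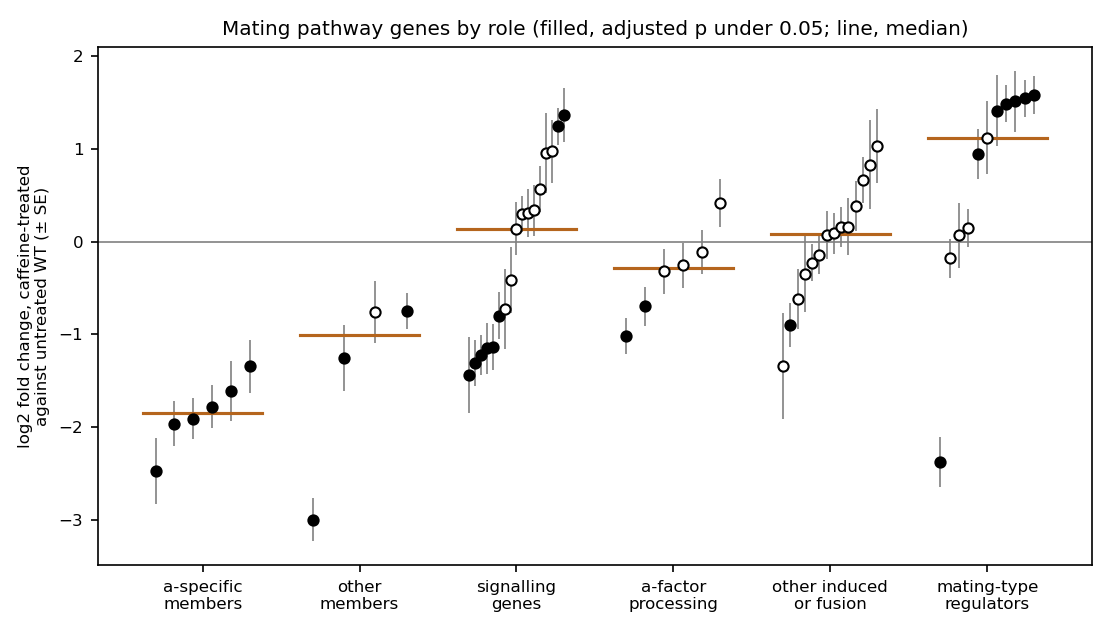
log2 fold change ± SE with caffeine (y axis) of the members and of 4 companion lists, grouped by role on the x axis, with 1 point for each gene, filled where the adjusted p in edgeR is under 0.05, and a line at the median of each list. All 6 a-specific members are filled and below -1, whereas the signalling genes spread on both sides of 0.

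Among the plasmid groups, *FUS1* was the 1 member that passed in edgeR with all 9 libraries. DESeq2 called *FAR1* as well, between the *yap1* mutant and WT with empty vector. *FUS1* had 10.1, 7.74 and 11.6 CPM in the *yap1* mutant, 17, 16.4 and 18.4 in WT with empty vector, and 22.4, 24.2 and 23.8 in the Yap1 overexpression strain. No 2 of these groups overlapped. The *yap1* mutant lay wholly below WT with empty vector in 7.74% of all genes and wholly below Yap1 overexpression in 10.4%. Yap1 overexpression lay wholly above WT with empty vector in 8.7%. Between the *yap1* mutant and Yap1 overexpression, the log2 fold change was -1.24 ± 0.18 (adjusted p = 0.00645 in edgeR), and it stayed between -1.37 and -1.10 with an adjusted p of at most 0.0479 in all 13 alternatives, which include leaving out each of the 6 libraries. In this comparison 0.973% of 6781 genes passed, 0.31% upward and 0.664% downward. Each step on its own missed the threshold. The *yap1* mutant compared with WT with empty vector gave -0.82 ± 0.18 (adjusted p = 0.13 in edgeR), and Yap1 overexpression compared with the same 3 libraries gave 0.43 ± 0.18 (adjusted p = 0.49 in edgeR). The first of these passed once the deviating empty vector library, replicate 2, was dropped (-0.84 with an adjusted p of 0.0379 in edgeR) and in DESeq2 (-0.81, adjusted p = 0.00739), and the second passed in none of its 13 alternatives.

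A neighbouring gene bears on the reading of *FUS1*. Its 3′ end points toward that of *HBN1*, a nitroreductase-like gene on the other strand, and 63 bases separate the 2 annotated genes. Reads appear to have been counted without regard to strand, because the *TAR1* row, on the strand opposite to 25S rRNA, reached 87% to 97.9% of RDN25-1 in counts. *HBN1* had 409, 847 and 698 counts in WT with empty vector, 802, 754 and 780 in the *yap1* mutant, and 6271, 5575 and 5534 in the Yap1 overexpression strain. It thus rose 7.43-fold with Yap1 overexpression (adjusted p = 1.55e-06 in edgeR), whereas its log2 fold change in the *yap1* mutant was 0.09 ± 0.15 (adjusted p = 0.84 in edgeR). *FUS1* itself had 209, 314 and 332 counts in WT with empty vector, 202, 149 and 203 in the *yap1* mutant and 462, 436 and 504 with Yap1 overexpression. Between the *yap1* mutant and Yap1 overexpression, where *FUS1* passed, *HBN1* had a log2 fold change of -2.81 ± 0.16 (adjusted p = 2.04e-06 in edgeR). *HBN1* therefore moved with *FUS1* in both comparisons with the overexpression strain and not between the *yap1* mutant and WT with empty vector. Its part in the *FUS1* counts was not tested. With caffeine, *HBN1* had a log2 fold change of -0.24 ± 0.20 (adjusted p = 0.375 in edgeR).

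**Figure D5:**
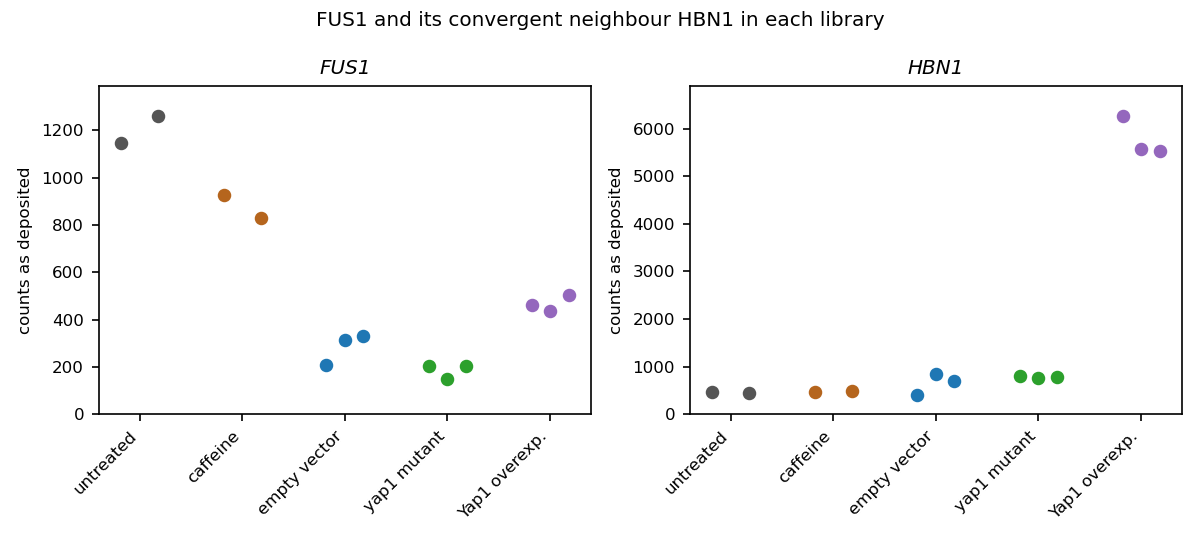
Deposited counts (linear axis from 0, not normalized) of *FUS1* (left) and of *HBN1*, which ends 63 bases from it on the other strand (right), with 1 point for each library in the 5 groups. *HBN1* lies between 5534 and 6271 counts with Yap1 overexpression and at or below 847 counts in the other groups, while the highest *FUS1* counts are those of the libraries without plasmid.

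No other member passed between Yap1 groups in the edgeR fit of all 9 plasmid libraries. Without Yap1, 0.0737% of 6781 genes passed compared with WT with empty vector, and 0 of the 10 members did, with 3 of them at an unadjusted p under 0.05 in edgeR, as were 10.2% of all genes, and 2 called by DESeq2, as were 1.68% of 7084 genes. These 3 were *FUS1*, *FAR1* and *STE6*. *FAR1* had 42.4, 37.4 and 44.2 CPM in the *yap1* mutant and 71.6, 81.1 and 57 in WT with empty vector (-0.76 ± 0.18, adjusted p = 0.152 in edgeR and 0.0321 in DESeq2). Leaving out replicate 2 of WT with empty vector, where *FAR1* was highest, gave -0.62 (adjusted p = 0.0648 in edgeR). *STE6* had 32.6, 31.8 and 29 CPM in the *yap1* mutant and 41.7, 51.9 and 40.6 in WT with empty vector (-0.53 ± 0.14, adjusted p = 0.196 in edgeR). Together with *FUS1* and *AGA1*, these make 4 members whose mutant libraries all lay below those of WT with empty vector, as did 7.74% of all genes. *MFA1* showed how far 1 library decides a value. Its log2 fold change in the *yap1* mutant was -0.20 ± 0.74 with all libraries, and without replicate 2 of WT with empty vector it passed at -0.72 ± 0.17 (adjusted p = 0.0331 in edgeR), in a fit where 1.47% of 6825 genes passed.

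With Yap1 overexpression, 0.472% of 6781 genes passed compared with WT with empty vector, and again 0 of the 10 members did, with 2 (*FUS1* and *FAR1*) at an unadjusted p under 0.05 in edgeR, as were 9.42% of all genes, and 0 called by DESeq2, as against 1.31% of 7084 genes. *FAR1* had 57.8, 41.3 and 41.4 CPM with Yap1 overexpression, so that its value went the same way as in the *yap1* mutant (-0.59 ± 0.18, adjusted p = 0.366 in edgeR). Both comparisons use the same 3 libraries of WT with empty vector. Between the *yap1* mutant and Yap1 overexpression, which share no library, *FAR1* differed by -0.17 ± 0.18 (adjusted p = 0.999 in edgeR). The other members had log2 fold changes between -0.25 and 0.18 with overexpression. *MFA2*, for example, had 727, 638 and 573 CPM with Yap1 overexpression and 534, 629 and 544 in the *yap1* mutant, groups that overlap, and a difference of -0.17 ± 0.28 between the mutant and overexpression. No gene of the 4 companion lists passed in any of the 3 comparisons between plasmid groups.

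The members stood at other levels in cells with the vector than in cells without it. WT with empty vector and untreated WT differ in the plasmid, perhaps in the medium, and in the set of libraries, which cannot be told apart. In a fit of all 13 libraries, 23.1% of 6920 genes passed between them, 11.2% upward and 11.9% downward, and of the members 5 were lower and 1 was higher with the vector. *AGA1* had 17, 19.7 and 16.9 CPM with the vector and 110 and 64.4 without (-2.28 ± 0.28, adjusted p = 0.000135 in edgeR), and 23 genes had a lower value. *AGA2* (-1.61 ± 0.26), *FUS1* (-1.57 ± 0.18), *BAR1* (-0.81 ± 0.20) and *FAR1* (-0.80 ± 0.19) were the others that were lower, and *STE2*, *MFA1*, *MFA2* and *FUS3* did not pass. *STE6* was higher, with 41.7, 51.9 and 40.6 CPM against 25.2 and 23.2 (0.89 ± 0.20, adjusted p = 0.00635 in edgeR). The gene *UBA1*, which ends 185 bases from *STE6* on the other strand, was 2.14-fold higher as well (adjusted p = 0.00672 in edgeR), and its part in the *STE6* counts was not tested. Such neighbours did not always move with their members. *HBN1*, beside *FUS1*, was 1.99-fold higher (adjusted p = 0.00151 in edgeR) and *MPF1*, beside *MFA2*, 2.08-fold (adjusted p = 0.00502 in edgeR), while both members had negative values. *BST1*, *CMI8* and *HOP2*, beside *STE2*, *MFA1* and *AGA2*, did not pass. When libraries were scaled by size alone, which shifted the median of all genes by -0.96, *STE6* stood at -0.01 and the other 9 members were all called lower, *STE2* (-1.93), *MFA1* (-2.87), *MFA2* (-1.79) and *FUS3* (-1.69) among them. In that fit 3498 genes were called lower and 140 higher, so the count of 9 is to be read against this shift. Without untreated replicate 2, *STE6*, *BAR1* and *FAR1* lost their calls (adjusted p = 0.0516 to 0.0525 in edgeR), and without replicate 2 of WT with empty vector *MFA1* gained one (-1.19, adjusted p = 0.000708 in edgeR). Leaving out empty vector replicate 1 instead let *STE2* and *FUS3* pass (adjusted p = 0.0323 and 0.0451 in edgeR), and *FUS3* also without untreated replicate 2 (adjusted p = 0.0414 in edgeR). Of 17 signalling genes, *BEM1*, a polarity scaffold, was higher with the vector (0.91 ± 0.22), and *GPA1* (-0.94 ± 0.21), *SST2* (-0.91 ± 0.27), *CDC24*, the exchange factor of Cdc42 (-0.71 ± 0.21), and *CDC42* (-0.62 ± 0.19) were lower. Of 6 a-factor processing genes, *STE14*, which methylates a-factor, was lower (-0.67 ± 0.17), and of 14 induced or fusion genes, *KAR4*, a partner of Ste12 (-1.12 ± 0.30), *FIG2*, a cell wall adhesin (-0.97 ± 0.26), and *PRM3*, used in nuclear fusion (-0.75 ± 0.25), were lower. The α2 row *MATALPHA2* (-0.71 ± 0.19) and the HMR a2 row *HMRA2* (-0.63 ± 0.18) were the 2 of 11 mating-type rows that passed. The 75-base windows of both rows all occur in other copies.

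The order of the 5 group means differed between members. Untreated WT was highest for 9 of them, and WT with empty vector was highest for *STE6*. For *FUS1* (untreated, caffeine, Yap1 overexpression, empty vector, *yap1* mutant, from high to low) and for *STE6* (empty vector, Yap1 overexpression, *yap1* mutant, untreated, caffeine) no neighbouring groups overlapped. How many of all genes separate the 5 groups in this way was not counted. Lack of overlap was frequent in single comparisons. Caffeine-treated WT lay wholly below untreated WT in 35.2% of genes and wholly above in 40%, and WT with empty vector did so in 24.1% and 19.6%. For *STE2*, whose order after untreated WT ran through Yap1 overexpression, *yap1* mutant and empty vector to caffeine, each group from the second on overlapped the next. Without the deviating replicate 2, the mean of empty vector was 152 CPM for *STE2* and 254 CPM for *MFA1*, next to untreated WT in both orders and above Yap1 overexpression. Caffeine-treated WT was the lowest group for *STE2*, *MFA2*, *STE6*, *BAR1*, *FAR1* and *AGA2*, and the *yap1* mutant was lowest for *MFA1*, *FUS1* and *AGA1*. For *FUS3* the lowest mean was that of Yap1 overexpression, which overlapped the *yap1* mutant.

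The genes most like the receptor gene over the 13 libraries were *ARX1*, which encodes a factor for export of the large ribosomal subunit (Pearson r = 0.953 with log2 CPM of *STE2*), and the ribosomal protein genes *RPL32* (0.948) and *RPL40B* (0.946). *RPL32* had mean levels of 1764 CPM in untreated WT, 387 after caffeine and 698 to 889 in the plasmid groups. Those most like *FUS1* were *TSA1*, a peroxiredoxin gene (0.939), and the adenine synthesis genes *ADE1* (0.918) and *ADE2* (0.912). *TSA1* had means of 637 CPM in the *yap1* mutant, 811 in WT with empty vector and 1049 with Yap1 overexpression. These are the highest of 4839 genes averaging 10 CPM or more, over points that share libraries, depth and group differences, and are given as a description.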

How the data were processed

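The values are raw counts per gene, 1 list per library, without normalization. As the authors state, QuantSeq 3′ reads (single-end, 75 bases) were aligned with Bowtie2, and the deposited counts cover unique and multiple alignments, made with bedtools. The build sacCer3 comes from the submitters' processing notes, and counter settings on strand are not given in the sources used here. The lists follow 2 naming versions, and 169 rows that differ in name were joined by position, while the 10 member rows are named alike in all lists. A table of mouse genes was not used.

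Samples were grouped by their labels. Tests used edgeR 4.0.16 in R 4.3.3 (filterByExpr, TMM, robust quasi-likelihood test, Benjamini-Hochberg adjustment over all genes tested, threshold 0.05), in 1 fit of the 4 libraries without plasmid, 1 of the 9 plasmid libraries and 1 of all 13. SE was derived from the log2 fold change and its F statistic, as |log2 fold change|/√F. CPM used TMM over all 13 libraries, and log2 CPM a prior count of 1. The biological coefficient of variation was 25.1% without and 25.8% with plasmid. The code was tested on simulated counts. All 10 members are described, and companion genes were named where they passed and were among the 3 largest changes of their list with a mean of at least 10 CPM, and beyond this rule all signalling and mating-type genes that passed and *HO* and *RME1* are given, chosen after their values were seen. The members, lists and rules were chosen with earlier results of these data known. Alternatives were DESeq2 1.42.0, scaling by library size, no filter, a filter at 10 CPM, rRNA rows left out, a replicate block, fits of only the libraries compared, and each library left out in turn.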

Additional observations from a re-analysis of the deposited data

How the results depend on the processing

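Numbers of members that passed were 9, 0, 0, 1 and 6 for caffeine, *yap1* mutant, Yap1 overexpression (both compared with WT with empty vector), *yap1* mutant compared with Yap1 overexpression, and WT with empty vector compared with untreated WT. DESeq2 called 2 members for the *yap1* mutant, and the fit of only the 5 libraries compared called 3 for the vector. With 1 library left out, the numbers of members were 6 to 8 for caffeine, 0 to 2 for the *yap1* mutant, 0 for overexpression, 1 between the mutant and overexpression and 4 to 8 for the vector. Numbers of all genes that passed were then 1999 to 2454 (3094 with all libraries), 1 to 100 (5), 21 to 112 (32), 27 to 33 (66) and 925 to 1927 (1598). All 3 highest counts for comparisons with WT with empty vector came without its replicate 2, and the lowest for caffeine and for the vector without untreated replicate 1. Leaving out any of the 6 libraries moved the counts by over 1.5 times for the *yap1* mutant and between mutant and overexpression. Overexpression without its replicate 2 (21) or without replicate 2 of WT with empty vector (112) also moved by over 1.5 times. So did caffeine without its replicate 2 or without untreated replicate 1, and the vector without untreated replicate 1. DESeq2 called 119, 93 and 191 genes in the 3 comparisons of plasmid groups, library size alone 287, 267 and 41, and fits of the 6 libraries compared 0, 21 and 328. For the vector, library size alone gave 3638 genes and the 5 libraries compared 338. Library size alone shifted the median of all genes to 0.37 (caffeine), 0.36, 0.45, -0.06 and -0.96, and the split of calls from 777 higher and 821 lower to 140 and 3498 for the vector, from 1501 and 1593 to 2182 and 1087 for caffeine, and from 21 and 45 to 3 and 38 between the mutant and overexpression. For caffeine no member changed direction in any alternative.

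With the replicate block, in which same-numbered libraries are treated as pairs, 1 gene passed for the *yap1* mutant and 41 between the mutant and overexpression, and *FUS3* passed with caffeine (-0.77, adjusted p = 0.00587 in edgeR). Deviations of same-numbered plasmid libraries correlated between -0.245 and 0.177, and their numbers were not taken as pairs. Those of the libraries without plasmid correlated at 0.405, which is 1 value for both pairs because each group has 2 libraries. It cannot decide whether these libraries are pairs, and the main fit did not pair them.

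Members that had not passed changed sign as follows. For the *yap1* mutant, library size alone gave *MFA1* 0.38, *MFA2* 0.24, *BAR1* 0.075, *FUS3* 0.21 and *AGA2* 0.31, and the block gave *MFA1* 0.13. Leaving out a library gave *STE2*, at 0.00 with all libraries, -0.29 to 0.25, *MFA1* -0.72 to 0.32, *MFA2* -0.53 to 0.027 and *AGA2* -0.40 to 0.084. For overexpression, library size alone gave *MFA2* 0.49, *STE6* 0.17, *FUS3* 0.26, *AGA1* 0.30 and *AGA2* 0.45, and leaving out a library gave *STE2* -0.11 to 0.44, *MFA1* -0.42 to 0.63, *BAR1* -0.099 to 0.18, *MFA2* -0.35 to 0.22 and *AGA2* -0.36 to 0.14. Between mutant and overexpression, *FUS3* was -0.051 by library size and -0.087 to 0.20 with a library left out, *AGA2* -0.16 to 0.079, and *FAR1* -0.26 to 0.005. *STE6*, which had passed for the vector, was -0.013 by library size. The causes were not tested.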

Other observations

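Of 11 rows of genes that set or silence mating type, 6 rose with caffeine and 1 fell, where 22.2% of all genes rose and 23.6% fell. Of the 6 that rose, 5 are rows of gene copies that share their sequence, and the sixth is *SIR1*. The other 4, *MCM1*, *HMRA1*, *SIR3* and *SIR4*, did not pass. Among the copies, the rows of the α2 genes and of HMR a2 rose. *MATALPHA2* had 20 and 18.3 CPM in untreated WT and 55.3 and 58.2 after caffeine (1.49 ± 0.20, SE), *HMLALPHA2* had 16.6 and 15.1 and then 48.2 and 52 (1.58 ± 0.20), and *HMRA2* had 16.3 and 16.4 and then 47.5 and 53.8 (1.55 ± 0.20). Their adjusted p-values in edgeR were 0.00199 to 0.00237. The α1 rows also rose, at 5.41 and 5.55 CPM after caffeine compared with 1.91 and 1.83 (*MATALPHA1* 1.42 ± 0.38 and *HMLALPHA1* 1.52 ± 0.33). These 5 rows are not independent, since 100% of the 75-base windows of each occur elsewhere in the genome, in the silent or the active copy, and the authors counted multiple alignments. BY4741 has no active α copy, and reads cannot be assigned to 1 of the copies. The a2 row *HMRA2* is among the rows with shared windows, so reads on the α2 rows may be reads of a2 RNA. Which RNA rose was not tested. *HMRA1*, the a1 gene, has no such window in the reference, whose active copy is α, and stayed between 77 and 90.5 CPM in the 4 libraries.

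*SIR2*, the histone deacetylase of the silent mating-type loci, was the row that fell, from 20.3 and 15.3 CPM to 3.8 and 3.44 (-2.37 ± 0.27, adjusted p = 0.00139 in edgeR). *SIR1*, which helps to establish silencing, rose (0.95 ± 0.27). *HO*, the gene of the mating-type switching endonuclease, which haploid cells transcribe late in G1, had 136 and 128 CPM in untreated WT and 3.95 and 5.72 after caffeine (-4.85 ± 0.29, adjusted p = 0.000867 in edgeR). *RME1*, another haploid gene, rose (1.32 ± 0.26).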
